A study of Homo sapiens with 18 samples.

Results

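The receptors of the ERBB family and the EGF family ligands that bind EGFR were followed here as 10 genes, 4 receptors (*EGFR*, *ERBB2*, *ERBB3* and *ERBB4*) and 6 ligands (*AREG*, *EREG*, *TGFA*, *HBEGF*, *BTC* and *EPGN*). The genes were taken by their symbols from a table of 40266 symbols, and all 10 were found. The table covers 18 RNA-seq libraries of the human pancreatic ductal adenocarcinoma (PDAC) lines Panc1 and Panc89, grown in Panc-medium, with no transgene or drug named in the labels. Panc1 came from a primary tumour and served as the mesenchymal model, and Panc89 came from a lymph node metastasis and served as the epithelial model. Each line was measured as parental cells, as Holoclone cells and as Paraclone cells, with 3 replicates taken from separate passages in each of these 6 groups. Holoclones are compact colonies held to be rich in cancer stem cells (CSC), and Paraclones are loose colonies held to be poor in them. The Holoclone and the Paraclone cells of a line each descend from a single cell, so the groups hold 1 clone each, p-values measure the spread between passages of a clone, and a difference between cell variants cannot be told apart from a difference between clones.

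As background, EGF family ligands are made as precursors in the cell membrane and are cut free by sheddases, chiefly ADAM17. *AREG* (amphiregulin), *TGFA* (transforming growth factor alpha) and *EPGN* (epigen) bind EGFR, while *EREG* (epiregulin), *HBEGF* (heparin-binding EGF-like growth factor) and *BTC* (betacellulin) bind EGFR and ERBB4. ERBB2 has no known ligand and acts as a partner in dimers, and ERBB3 binds neuregulins and, with a weak kinase of its own, signals through such a partner towards PI3K. Receptor dimers feed the RAS-MAPK and PI3K-AKT pathways, and EGFR signalling is known to contribute to the start of pancreatic tumours in mice.

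Levels are given in TPM, a measure of transcripts scaled by transcript length and by the total of the library, so that genes can be set side by side. Differences are log2 fold changes of TPM + 1, which understate changes of genes near or under 1 TPM, and were tested with limma-trend across the 16093 genes that had at least 1 TPM in at least 3 libraries. A gene is called higher or lower, or said to have risen or fallen, where its adjusted p was under 0.05. TPM carry no counts, so the depth of each library is unknown and counting error cannot be stated. The TPM of a library summed to between 985339 and 988066, and between 12932 and 14199 genes per library reached 1 TPM. Epithelial and mesenchymal markers set the lines apart in part. *VIM* lay between 2021 and 5044 TPM in Panc1 and at or below 0.456 TPM in Panc89, and *CDH1* between 0.671 and 3.51 TPM in Panc1 and between 73.3 and 107 TPM in Panc89. *ZEB1* and *SPARC* were also higher in all Panc1 and *EPCAM* in all Panc89 libraries, whereas the means of the mesenchymal gene *FN1* (0.345 TPM in Panc1, 6.12 TPM in Panc89) and of the keratins *KRT8* (1208 and 660 TPM) and *KRT18* (1295 and 1062 TPM) lay the other way, *CDH2* overlapped (means 6.62 and 5.16 TPM), and *KRT19* overlapped with a higher mean in Panc89 (703 and 1412 TPM). In bulk RNA, fewer cells with a transcript and less transcript per cell cannot be told apart.

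Of the 6 ligand genes, 4 lie together on chromosome 4 (GRCh38, GENCODE 44): *EPGN* at chr4:74308470-74316789, *EREG* at chr4:74365145-74388749 and *AREG* at chr4:74445136-74455005 on the plus strand, and *BTC* at chr4:74744759-74794523 on the minus strand. *EPGN* and *EREG* are 48.4 kb apart, *EREG* and *AREG* 56.4 kb, and *AREG* and *BTC* 289.8 kb. *TGFA* lies at chr2:70447284-70554193, *HBEGF* at chr5:140332843-140346603, *EGFR* at chr7:55019017-55211628, *ERBB2* at chr17:39687914-39730426, *ERBB3* at chr12:56076799-56103505 and *ERBB4* at chr2:211375717-212538841. The 250 bases before the start of *EPGN*, *EREG* and *AREG* are shown because these neighbours had the largest log2 fold changes of the 9 genes tested between Holoclone and Paraclone cells, *EPGN* in Panc89 and *EREG* and *AREG* in Panc1. The sequences are RefSeq's on GRCh38.p14, plus strand, 5′ to 3′, and capitals mark the TATA box TATAAA and the cAMP response element TGACGTCA.
EPGN, chr4:74308220-74308469: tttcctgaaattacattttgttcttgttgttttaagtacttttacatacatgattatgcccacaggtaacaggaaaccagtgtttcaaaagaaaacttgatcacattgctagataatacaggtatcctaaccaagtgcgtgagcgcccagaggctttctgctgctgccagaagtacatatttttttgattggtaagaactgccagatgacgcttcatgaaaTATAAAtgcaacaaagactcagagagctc
EREG, chr4:74364895-74365144: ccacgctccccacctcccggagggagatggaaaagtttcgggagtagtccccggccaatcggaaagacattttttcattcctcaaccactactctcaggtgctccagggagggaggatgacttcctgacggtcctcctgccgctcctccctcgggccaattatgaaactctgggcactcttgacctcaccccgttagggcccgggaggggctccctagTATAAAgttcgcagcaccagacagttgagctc
AREG, chr4:74444886-74445135: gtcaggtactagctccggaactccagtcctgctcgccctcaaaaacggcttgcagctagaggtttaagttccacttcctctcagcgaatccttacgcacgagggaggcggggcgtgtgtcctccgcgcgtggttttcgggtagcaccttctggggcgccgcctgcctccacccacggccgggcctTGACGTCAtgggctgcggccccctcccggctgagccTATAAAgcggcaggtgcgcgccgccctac

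All 3 windows hold TATAAA close to the start, from 29 to 24 bases before it in *EPGN* and *AREG* and from 32 to 27 bases before it in *EREG*. The cAMP response element, which CREB and ATF factors bind, stood in the *AREG* window only of the 11 windows found for 9 of the 10 genes, from 65 to 58 bases before the start. The AP-1 motif was searched as TGANTCA, with any base in the middle. This pattern was found as TGATTCA in the window of *ERBB2*. In the window of a second start of *EGFR*, which also holds TATAAA, it was found as TGAGTCA and TGACTCA. Among 35116 RefSeq windows of the same length, 10.7% hold TATAAA, 1.65% the cAMP response element and 6.57% the AP-1 motif. All motifs were searched on both strands, so the 10.7% counts windows with TATAAA on either strand. The TATAAA matches found in the 11 windows all lay on the strand of the gene. The cAMP response element and the AP-1 motif read the same on both strands. The motifs do not overlap, and a match is a description of letters, not of binding.

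The receptors differed between the lines in level and in order. *EGFR* was the highest receptor in all 9 Panc1 libraries, with 77.9% ± 4.0 (SD, n = 3) of the summed receptor TPM in parental cells, and *ERBB3*, with 55.8% ± 3.8, stood first in parental Panc89 cells, where *EGFR* held 7.92% ± 0.65. *ERBB2* was above *EGFR* in 8 of the 9 Panc89 libraries and in 0 of the 9 Panc1 libraries.

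*EGFR* was at 72.8, 47.6 and 77.7 TPM in parental Panc1, 69.7, 117 and 91.2 TPM in Panc1 Holoclone and 52.3, 35.6 and 36.7 TPM in Panc1 Paraclone cells. In Panc89, *EGFR* was at 17.6, 15.3 and 17.4 TPM in parental, 36.3, 42.2 and 40.6 TPM in Holoclone and 38.6, 21.6 and 26.5 TPM in Paraclone cells. Ordered by their means, the groups ran from Panc1 Holoclone through parental Panc1, Panc1 Paraclone, Panc89 Holoclone and Panc89 Paraclone to parental Panc89 cells, and all neighbours in this order overlapped except the last pair, in which each Panc89 Paraclone library was above each parental Panc89 library.

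*ERBB2* was at 17.0, 14.9 and 17.6 TPM in parental Panc1, 42.3, 36.6 and 35.3 TPM in Panc1 Holoclone and 9.53, 11.1 and 14.8 TPM in Panc1 Paraclone cells. In Panc89 it was at 76.1, 70.9 and 83.5 TPM in parental, 69.6, 49.8 and 36.9 TPM in Holoclone and 68.1, 78.9 and 73.4 TPM in Paraclone cells. The 3 Panc1 groups were separate from each other, whereas the Panc89 Holoclone libraries were widely spread and their lowest reached into the range of the Panc1 Holoclone libraries.

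*ERBB3* was at 1.24, 2.46 and 1.34 TPM in parental Panc1, 1.75, 2.84 and 2.02 TPM in Panc1 Holoclone and 1.23, 0.751 and 0.800 TPM in Panc1 Paraclone cells. In Panc89, *ERBB3* was at 133, 91.4 and 136 TPM in parental, 53.5, 33.9 and 31.7 TPM in Holoclone and 114, 75.5 and 117 TPM in Paraclone cells. All Panc89 libraries were above all Panc1 libraries, and within Panc89 the Holoclone libraries were below the others, while parental and Paraclone libraries overlapped.

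*ERBB4* was at or below 0.117 TPM in every Panc1 library and at or below 0.369 TPM in every Panc89 library, and did not pass the filter on low values. Its highest values were the 0.122, 0.366 and 0.369 TPM of Panc89 Paraclone cells. The tests therefore cover 9 of the 10 genes.

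**Figure D1:**
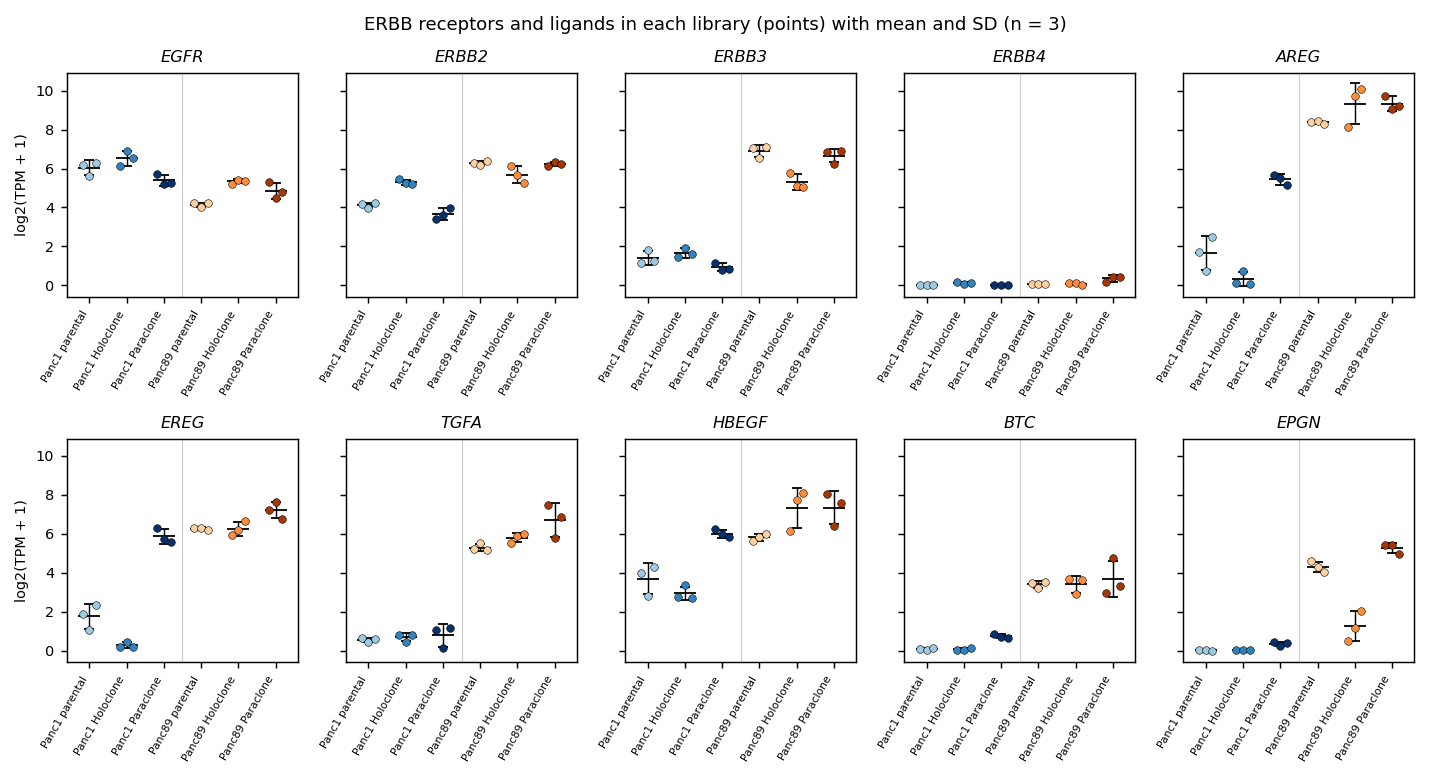
Level of each of the 10 genes on the log2(TPM + 1) scale (y axis) in each library (points) of the 6 groups (x axis), with the mean and SD of 3 replicates; blue groups are Panc1 and orange to brown groups Panc89. *ERBB3*, *AREG*, *TGFA*, *BTC* and *EPGN* lie higher in all Panc89 than in all Panc1 libraries. Within Panc1, *AREG*, *EREG* and *HBEGF* lie highest in Paraclone cells, and within Panc89, *EPGN* lies lowest in Holoclone cells.

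The mean levels of *AREG*, *EREG*, *BTC* and *EPGN* were higher in Panc1 Paraclone cells than in the other Panc1 groups and lower than in every Panc89 group, while *HBEGF* had a higher mean in Panc1 Paraclone than in parental Panc89 cells and *TGFA* stayed near or under 1 TPM throughout Panc1. *AREG* was the highest ligand in all 9 Panc89 libraries and *HBEGF* in 8 of the 9 Panc1 libraries, *EREG* being first in the remaining library, Panc1 Paraclone replicate 1.

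*AREG* was at 2.27, 0.688 and 4.68 TPM in parental Panc1, 0.0864, 0.643 and 0.0507 TPM in Panc1 Holoclone and 49.9, 45.1 and 34.4 TPM in Panc1 Paraclone cells. In Panc89, *AREG* was at 337, 344 and 311 TPM in parental, 281, 857 and 1097 TPM in Holoclone and 860, 524 and 584 TPM in Paraclone cells. The 3 Panc1 groups were separate, with Paraclone cells highest, while the Panc89 Holoclone libraries were so widely spread that they overlapped both other Panc89 groups. By its mean, *AREG* was above 9.08% of the genes tested in Panc1 Holoclone cells and above 97.7% to 98.9% of them in the Panc89 groups.

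*EREG* was at 2.71, 1.08 and 4.07 TPM in parental Panc1, 0.144, 0.382 and 0.145 TPM in Panc1 Holoclone and 77.2, 52.1 and 46.4 TPM in Panc1 Paraclone cells. In Panc89 it was at 78.0, 79.1 and 71.2 TPM in parental, 60.7, 71.4 and 100 TPM in Holoclone and 149, 198 and 109 TPM in Paraclone cells. The order of the Panc1 groups was that of *AREG*, and the highest Panc1 Paraclone library overlapped the parental Panc89 libraries.

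*HBEGF* was at 15.0, 5.96 and 18.8 TPM in parental Panc1, 5.65, 9.17 and 5.62 TPM in Panc1 Holoclone and 74.1, 62.3 and 55.3 TPM in Panc1 Paraclone cells. In Panc89, *HBEGF* was at 48.7, 56.2 and 63.1 TPM in parental, 69.6, 209 and 272 TPM in Holoclone and 259, 84.9 and 194 TPM in Paraclone cells. Panc1 Paraclone and parental Panc89 libraries overlapped, as did parental Panc1 and Panc1 Holoclone libraries.

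*TGFA* lay between 0.0903 and 1.27 TPM in Panc1, with a median of 0.556 TPM over its 9 libraries, and its 3 Panc1 groups overlapped. In Panc89 it was at 35.7, 44.5 and 35.5 TPM in parental, 45.5, 57.3 and 63.3 TPM in Holoclone and 178, 54.0 and 117 TPM in Paraclone cells. The Panc89 Holoclone libraries were above the parental ones, and the Paraclone libraries were the most widely spread.

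*BTC* stayed at or below 0.0862 TPM in parental Panc1 and Panc1 Holoclone cells and was at 0.793, 0.620 and 0.585 TPM in Panc1 Paraclone cells. In Panc89 it was at 10.1, 8.20 and 10.7 TPM in parental, 11.7, 6.50 and 11.4 TPM in Holoclone and 6.83, 25.9 and 9.09 TPM in Paraclone cells. The 3 Panc89 groups overlapped, with 1 high Paraclone library, replicate 2.

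*EPGN* stayed at or below 0.0372 TPM in parental Panc1 and Panc1 Holoclone cells and was at 0.360, 0.177 and 0.305 TPM in Panc1 Paraclone cells. In Panc89 it was at 22.9, 18.8 and 15.5 TPM in parental, 0.421, 1.26 and 3.15 TPM in Holoclone and 41.6, 41.6 and 30.7 TPM in Paraclone cells. The 3 Panc89 groups were separate, with the Holoclone libraries lowest and the Paraclone libraries highest.

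Summed over the 6 genes, ligand transcripts took 19.0 ± 10.1 TPM (SD, n = 3) in parental Panc1, 7.99 ± 2.29 TPM in Panc1 Holoclone and 167 ± 33 TPM in Panc1 Paraclone cells, and 530 ± 22, 1073 ± 550 and 1156 ± 299 TPM in parental, Holoclone and Paraclone cells of Panc89. The summed receptor TPM varied less, from 54.2 ± 8.0 TPM in Panc1 Paraclone to 214 ± 32 TPM in parental Panc89 cells. Ligand TPM per receptor TPM came to 0.0595 ± 0.0081 in Panc1 Holoclone, 0.214 ± 0.084 in parental Panc1 and 3.08 ± 0.39 in Panc1 Paraclone cells. Transcripts of receptors thus exceeded those of the 6 ligands in the first 2 groups and not in the third. In Panc89 the ratio was 2.53 ± 0.50 in parental, 8.89 ± 5.64 in Holoclone and 5.61 ± 1.03 in Paraclone cells. The ligand sum leaves out the neuregulins, which bind ERBB3, so the ratios do not cover all ligands of the summed receptors. The neuregulin gene *NRG1* alone was at 15.9, 36.6 and 23.9 TPM in Panc1 Holoclone cells. The make-up of the summed TPM of the 6 ligands differed too. *HBEGF* held 85.0% ± 1.0 of it in Panc1 Holoclone cells. In Panc1 Paraclone cells *HBEGF* held 38.4% ± 1.8, *EREG* 34.7% ± 2.9 and *AREG* 25.8% ± 2.0. In parental Panc89 cells *AREG* held 62.4% ± 1.0.

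**Figure D2:**
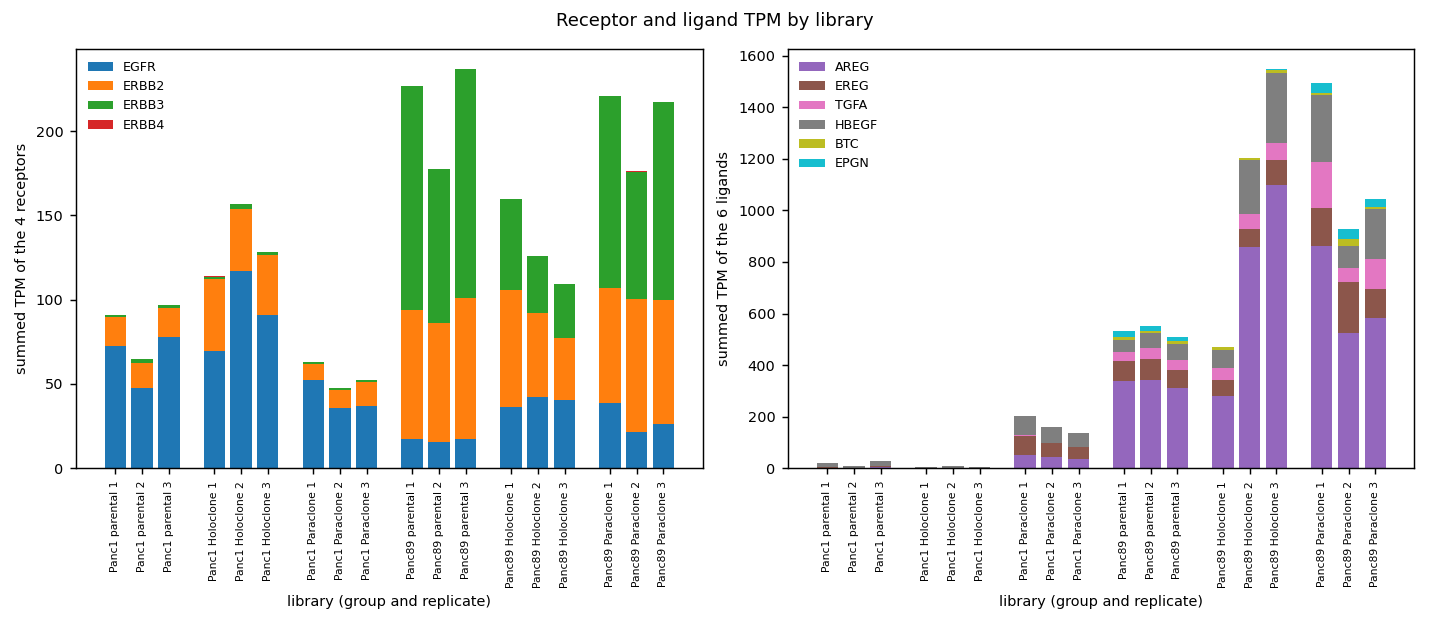
TPM of the 4 receptors (left) and of the 6 ligands (right) stacked in each of the 18 libraries (x axis), with separate linear y axes in TPM that start at 0. *EGFR* makes up most of the receptor bar in Panc1 and *ERBB3* in parental Panc89, and the ligand bars run from 6.65 TPM in a Panc1 Holoclone library to 1547 TPM in a Panc89 Holoclone library.

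Parental Panc89 and parental Panc1 cells were compared to see how the epithelial and the mesenchymal model differ before cloning. The p-values measure the spread between passages of each line. Line, site of origin and epithelial or mesenchymal state cannot be told apart, here or between the clones of the lines. All 9 genes tested were called, 8 higher in Panc89 and *EGFR* lower, where 66.0% of all genes tested were called in this comparison, 27.5% higher and 38.5% lower. Over the 9 genes the log2 fold changes had a median of 4.29, against −0.18 over all genes tested. *EGFR* fell by 1.88 on the log2 scale (SE 0.23, adjusted p = 3.12e-06), being 3.93-fold higher in parental Panc1 cells. Of the other receptors, *ERBB3* had a log2 change of 5.50 (SE 0.24, adjusted p = 1.88e-11), a 71.5-fold difference in mean TPM, and *ERBB2* one of 2.15 (SE 0.19, adjusted p = 6.21e-08), 4.66-fold.

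All ligand genes rose in parental Panc89 against parental Panc1 cells. *AREG* had the largest log2 fold change, 6.71 (SE 0.44, adjusted p = 2.3e-09), with 130-fold more mean TPM. *TGFA* followed with 4.73 (SE 0.34), *EREG* with 4.50 (SE 0.29), *EPGN* with 4.29 (SE 0.27), *BTC* with 3.34 (SE 0.33) and *HBEGF* with 2.12 (SE 0.48), the last with the largest adjusted p of the 6, 0.00112. All 9 calls held whichever parental library was left out. *BTC* and *EPGN* stayed under 1 TPM in every Panc1 library, and *TGFA* reached it in too few of them. These genes thus passed the filter on low values through Panc89 alone. Higher values in Panc89 were in part a condition of their being tested, here and between the clones of the lines. They are included in the counts of genes called higher in Panc89 and in the median given above.

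The clones of the 2 lines were compared in the same way. In both comparisons *TGFA*, *BTC* and *EPGN* are among the genes counted as higher in Panc89, which was in part a condition of their being tested. Between the Holoclone cells, 8 of the 9 genes were called, against 65.8% of all genes tested, 7 of them higher in Panc89 and *EGFR* lower, where 29.3% of all genes tested were higher and 36.4% lower. *EGFR* fell by 1.17 on the log2 scale (SE 0.23, adjusted p = 0.000354). *AREG* rose by 9.03 on the log2 scale (SE 0.44, adjusted p = 6.26e-11), in place 5 from the highest of all genes tested. *ERBB2* did not pass, with a log2 fold change of 0.40 (95% interval 0.00 to 0.80, adjusted p = 0.0728), though it did with upper quartile scaling (0.52, adjusted p = 0.0106), with median-of-ratios scaling (0.57, adjusted p = 0.00656) and without Panc89 Holoclone replicate 3 (0.62, adjusted p = 0.00606). Between the Paraclone cells, 8 of the 9 genes were called higher in Panc89 (60.7% of all genes tested were called, 30.2% higher), and *EGFR* was not, with −0.53 (95% interval −1.02 to −0.03, adjusted p = 0.0621). Here *EREG* rose by 1.36 on the log2 scale (SE 0.29, adjusted p = 0.000841) and *HBEGF* by 1.34 (SE 0.48, adjusted p = 0.0248). The call of *HBEGF* was lost without Panc1 Paraclone replicate 2 (1.33, adjusted p = 0.0564) or 3 (1.24, adjusted p = 0.0693). Leaving out Panc89 Paraclone replicate 1 (1.00, adjusted p = 0.115) or 3 (1.21, adjusted p = 0.076) ended it as well, and *EGFR* passed without Panc89 Paraclone replicate 1 (−0.75, adjusted p = 0.0131). These 3 comparisons between the lines use separate libraries.

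Panc1 Holoclone and Paraclone cells were compared as the CSC-rich and the CSC-poor variant of the mesenchymal model. Of the 9 genes tested, 6 were called, against 37.3% of all genes tested: the receptors *EGFR*, *ERBB2* and *ERBB3* rose in Holoclone cells (27.4% of all genes tested rose) and the ligands *AREG*, *EREG* and *HBEGF* fell (9.97% fell). *EREG* had a log2 change of −5.58 (SE 0.29, adjusted p = 1.04e-09), with 262-fold more mean TPM in Paraclone cells, and stood in place 9 from the lowest of all genes tested. *AREG* had one of −5.14 (SE 0.44, adjusted p = 3.37e-07), 166-fold, in place 12 from the lowest. *HBEGF* had one of −3.07 (SE 0.48, adjusted p = 0.000135), 9.38-fold. For each of these 3 ligands every Paraclone library was above every Holoclone library, a separation that 51.3% of all genes tested showed between these groups in either direction, and the calls held whichever library of these groups was left out.

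*ERBB2* had a log2 change of 1.63 (SE 0.19, adjusted p = 7.43e-06) between Panc1 Holoclone and Paraclone cells, 3.22-fold, and *EGFR* one of 1.13 (SE 0.23, adjusted p = 0.00126), 2.23-fold. *ERBB3*, which was below 3 TPM throughout Panc1, had one of 0.73 (SE 0.24, adjusted p = 0.028), and this call was lost without Holoclone replicate 2 (0.59, adjusted p = 0.112) or 3 (0.76, adjusted p = 0.0542) and without Paraclone replicate 2 (0.66, adjusted p = 0.0923) or 3 (0.68, adjusted p = 0.0801). It was also lost with upper quartile scaling (0.58, adjusted p = 0.0684) and median-of-ratios scaling (0.56, adjusted p = 0.0813), which bring the median change over all genes tested on the log2 scale from 0.19 to 0.00363 and −0.000626 and the share of called genes that are higher in Holoclone cells from 73.3% to 49.9% and 46.8%. *BTC* and *EPGN*, near or below 1 TPM in Panc1, did not pass at −0.67 (adjusted p = 0.126) and −0.33 (adjusted p = 0.385), although all Paraclone libraries were above all Holoclone libraries. With 0.1 in place of 1 added to the TPM, both passed, *BTC* at −2.37 (adjusted p = 0.000253) and *EPGN* at −1.65 (adjusted p = 0.0103). *TGFA* was at −0.09 (95% interval −0.81 to 0.63).

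Markers of other cell types were looked at beside these changes. The leukocyte markers *PTPRC* and *CD3E* were below 1 TPM in every library, and the summed TPM of the leukocyte list, nearly all of it *CD68*, ran from 124 to 151 TPM in Panc1 Paraclone and from 52.2 to 69.1 TPM in Panc1 Holoclone cells. The summed TPM of the 5 mesenchymal markers, most of it *VIM*, ran from 3677 to 5137 TPM in Panc1 Paraclone and from 2053 to 2890 TPM in Panc1 Holoclone cells. That of the 5 epithelial markers, nearly all of it keratins, overlapped, with 2593 to 3943 and 2631 to 3719 TPM. The summed TPM of the 5 fibroblast markers, most of it *COL1A1*, ran from 1.30 to 1.45 TPM in Panc1 Paraclone and from 6.77 to 10.5 TPM in Panc1 Holoclone cells. The part of these differences in the results was not tested.

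In Panc89, Holoclone and Paraclone cells were compared as the CSC-rich and the CSC-poor variant of the epithelial model. Of the 9 genes tested, 5 were called, all of them lower in Holoclone cells (*ERBB2*, *ERBB3*, *EREG*, *TGFA* and *EPGN*), where 35.7% of all genes tested were called and 13.3% were lower. *EPGN* had a log2 change of −4.02 (SE 0.27, adjusted p = 2.35e-08), with 23.5-fold more mean TPM in Paraclone cells, in place 24 from the lowest of all genes tested. *ERBB3* had one of −1.35 (SE 0.24, adjusted p = 0.000468), 2.58-fold. Neither gene's libraries overlapped, as for 40.8% of all genes tested, and both calls held whichever library was left out, between −4.43 and −3.65 for *EPGN* and between −1.58 and −1.22 for *ERBB3*.

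The other 3 calls in Panc89 were close to the threshold. *EREG* had a log2 change of −0.96 (SE 0.29, adjusted p = 0.0182) and lost its call without Holoclone replicate 1 (−0.80, adjusted p = 0.0689) or 2 (−0.91, adjusted p = 0.0561) and without Paraclone replicate 2 (−0.75, adjusted p = 0.0701). *TGFA* had one of −0.91 (SE 0.34, adjusted p = 0.0467) and *ERBB2* one of −0.53 (SE 0.19, adjusted p = 0.0377), with overlapping libraries in both. The call of *TGFA* was lost without Holoclone replicate 1 (−0.78), 2 (−0.94) or 3 (−1.01) and without Paraclone replicate 1 (−0.53) or 3 (−0.83), and without Paraclone replicate 2 its log2 fold change was −1.38. That of *ERBB2* was lost without Holoclone replicate 2 (−0.52) or 3 (−0.31) and without Paraclone replicate 1 (−0.58), 2 (−0.48) or 3 (−0.53). Leaving out Holoclone replicate 2 left 2 of the 9 genes called, and leaving out Holoclone replicate 1 or 3 or Paraclone replicate 2 or 3 left 3.

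*AREG* and *HBEGF*, the ligands with the highest levels in Panc89, were not called between its Holoclone and Paraclone cells. *AREG* had a log2 change of 0.00 (95% interval −0.94 to 0.95) and *HBEGF* one of −0.03 (95% interval −1.06 to 0.99). Holoclone replicate 1 was the lowest of the 6 libraries for both genes, and without it the log2 fold changes were 0.60 for *AREG* and 0.55 (adjusted p = 0.36) for *HBEGF*. *BTC* was at −0.28 (95% interval −0.98 to 0.41), and *EGFR* at 0.48 (95% interval −0.01 to 0.98, adjusted p = 0.122), which passed without Paraclone replicate 1 (0.71, adjusted p = 0.0343). In these Panc89 groups the summed leukocyte markers ran from 34.2 to 63.1 TPM in Paraclone and from 18.3 to 25.6 TPM in Holoclone cells, and the summed mesenchymal markers from 12.7 to 31.6 and from 7.68 to 13.6 TPM. Of the mesenchymal markers, *VIM* stayed at or below 0.456 TPM and *SPARC* at or below 0.469 TPM throughout Panc89. The summed fibroblast markers ran from 23.8 to 26.1 TPM in Paraclone and from 10.2 to 21.7 TPM in Holoclone cells. The summed epithelial markers, most of them keratin TPM, ran from 3354 to 4090 and from 2786 to 3214 TPM. Their part in the results was not tested.

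**Figure D3:**
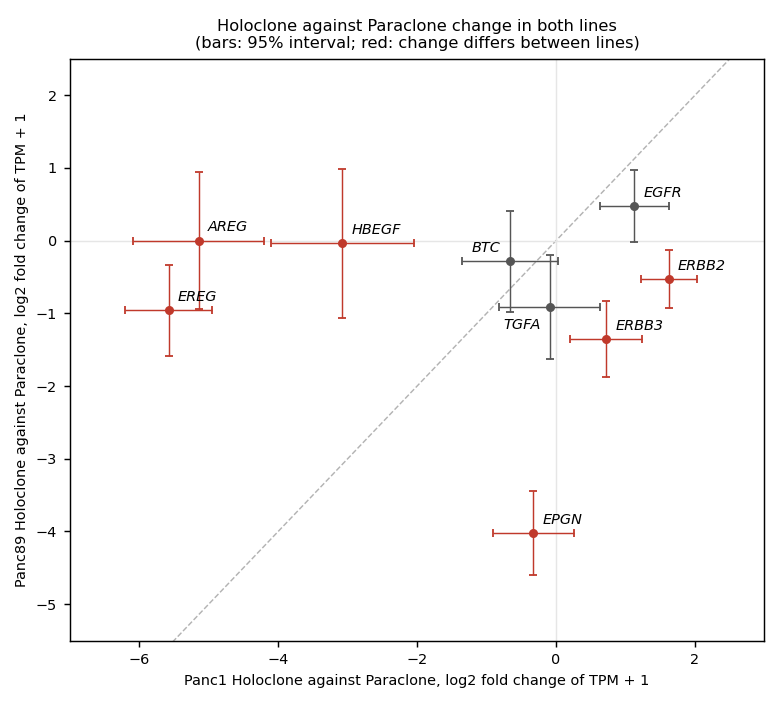
Log2 fold change of TPM + 1 of Holoclone against Paraclone cells in Panc1 (x axis) and in Panc89 (y axis) for the 9 genes tested, with 95% intervals; the dashed line marks equal changes. Red marks the 6 genes whose difference between the lines was called. *AREG*, *EREG* and *HBEGF* lie far to the left, *EPGN* far below and *ERBB2* and *ERBB3* to the lower right of the dashed line.

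Whether the change between the clones differed between the lines was tested as the difference of the log2 fold changes, Panc89 minus Panc1. It was called for 6 of the 9 genes, where 35.1% of all genes tested were called, 14.8% with a positive and 20.4% with a negative difference. The difference was positive for *AREG* (5.15, SE 0.63, adjusted p = 1.48e-05), *EREG* (4.62, SE 0.41, adjusted p = 6.1e-07) and *HBEGF* (3.04, SE 0.68, adjusted p = 0.00267). It was negative for *EPGN* (−3.70, SE 0.38, adjusted p = 2.8e-06), *ERBB2* (−2.16, SE 0.27, adjusted p = 1.61e-05) and *ERBB3* (−2.08, SE 0.34, adjusted p = 0.000249). *ERBB2* and *ERBB3* thus rose in Panc1 Holoclone and fell in Panc89 Holoclone cells, although the call of *ERBB2* in Panc89 and that of *ERBB3* in Panc1 depended on single libraries, as given above. The 6 differences stayed called whichever library was left out. *EPGN* passed the filter on low values through Panc89 alone, and the 1 TPM added before the logarithm leaves little of a change under 1 TPM. By mean TPM it was 14.2-fold lower in Panc1 Holoclone than in Panc1 Paraclone cells and 23.5-fold lower in Panc89. Of the other 3 genes, *EGFR* had a difference of −0.65 (95% interval −1.35 to 0.05), *TGFA* one of −0.82 (95% interval −1.84 to 0.20) and *BTC* one of 0.38 (95% interval −0.60 to 1.37). Without Panc89 Paraclone replicate 2, the differences of *TGFA* (−1.29, adjusted p = 0.0128) and *BTC* (0.92, adjusted p = 0.0166) passed.

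Each clone was also set against the parental cells of its line. The comparisons of a line share their parental libraries, so the values are given side by side. In Panc1, 2 of the 9 genes were called in Holoclone cells (10.9% of all genes tested, 5.87% higher and 5.06% lower) and 4 in Paraclone cells (28.6%, with 7.31% higher and 21.3% lower). *AREG*, *EREG* and *HBEGF* rose in Paraclone against parental cells by 3.79 (SE 0.44, adjusted p = 1.45e-05), 4.10 (SE 0.29, adjusted p = 5.32e-08) and 2.31 (SE 0.48, adjusted p = 0.00226) on the log2 scale. In Holoclone against parental cells *EREG* fell, with −1.48 (SE 0.29, adjusted p = 0.00343), a call lost with only the libraries compared in the fit (adjusted p = 0.0612), *HBEGF* was at −0.77 (adjusted p = 0.376) and *AREG* at −1.36 (adjusted p = 0.0657), the last passing without parental replicate 2 (−1.81, adjusted p = 0.019). *ERBB2* rose in Holoclone cells by 1.16 (SE 0.19, adjusted p = 0.000753) and was at −0.47 in Paraclone cells (adjusted p = 0.0763), where it passed without Paraclone replicate 3 (−0.63, adjusted p = 0.0313). *EGFR* fell in Paraclone cells by 0.65 (SE 0.23, adjusted p = 0.0484), a call lost without parental replicate 1 (−0.56) or 3 (−0.52) or Paraclone replicate 2 (−0.55) or 3 (−0.57) and with upper quartile scaling (−0.43) and median-of-ratios scaling (−0.41).

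In Panc89, 5 of the 9 genes were called in Holoclone against parental cells (24.7% of all genes tested, 16.1% higher and 8.61% lower) and 5, all higher, in Paraclone against parental cells (19.4%, with 9.37% higher). *ERBB3* and *EPGN* fell in Holoclone cells, with −1.59 (SE 0.24, adjusted p = 0.000183) and −3.06 (SE 0.27, adjusted p = 9.17e-07), and *EGFR* rose by 1.19 (SE 0.23, adjusted p = 0.00134), each with every leave-out of a library keeping the call. In Paraclone cells *ERBB3* was at −0.23 (adjusted p = 0.573), *EPGN* rose by 0.96 (SE 0.27, adjusted p = 0.0207), *EGFR* by 0.71 (SE 0.23, adjusted p = 0.0424), *EREG* by 0.95 (SE 0.29, adjusted p = 0.0317) and *TGFA* by 1.42 (SE 0.34, adjusted p = 0.0073). *HBEGF* rose in both, by 1.49 (SE 0.48, adjusted p = 0.0336) in Holoclone and by 1.53 (SE 0.48, adjusted p = 0.0361) in Paraclone cells, and *ERBB2* fell in Holoclone cells, with −0.60 (SE 0.19, adjusted p = 0.0303). *AREG* did not pass in Holoclone cells, with 0.96 (95% interval 0.01 to 1.90, adjusted p = 0.137), but did without Holoclone replicate 1 (1.55, adjusted p = 0.00669).

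Several of these Panc89 calls were lost when a single library was left out. In Holoclone against parental cells, *HBEGF* lost its call without any of the 3 parental replicates (1.40 to 1.58) and without Holoclone replicate 2 (1.29) or 3 (1.10), and *ERBB2* lost its call without parental replicate 1 (−0.60) or 3 (−0.53) and without Holoclone replicate 2 (−0.59) or 3 (−0.37). The number of genes called was then 3 without parental replicate 1 or 3 or Holoclone replicate 2 or 3. In Paraclone against parental cells, *EGFR*, *EREG* and *HBEGF* lost their calls without any of the parental replicates and without Paraclone replicate 1, *EGFR* and *HBEGF* also without Paraclone replicate 3 and *EREG* also without Paraclone replicate 2. *EPGN* lost its call without parental replicate 3 (0.83, adjusted p = 0.0958) or Paraclone replicate 1 (0.89, adjusted p = 0.0773). The count of 5 was 1 without parental replicate 3 or Paraclone replicate 1, 2 without parental replicate 1 or 2, and 3 without Paraclone replicate 3, while the call of *TGFA* held in all of these but was lost with 0.1 in place of 1 added to the TPM (1.44, adjusted p = 0.0996) and with only the libraries compared in the fit (1.42, adjusted p = 0.0892). Parental Panc89 cells also had 55.2 to 69.1 summed TPM of the 4 endothelial markers, nearly all of it *PECAM1*, against 1.01 to 2.17 TPM in Holoclone and 2.95 to 8.90 TPM in Paraclone cells. The other endothelial markers reached at most 0.0141 TPM (*KDR*), 0.355 TPM (*VWF*) and 5.07 TPM (*CDH5*) in Panc89. The part of the *PECAM1* difference in the results was not tested.

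**Figure D4:**
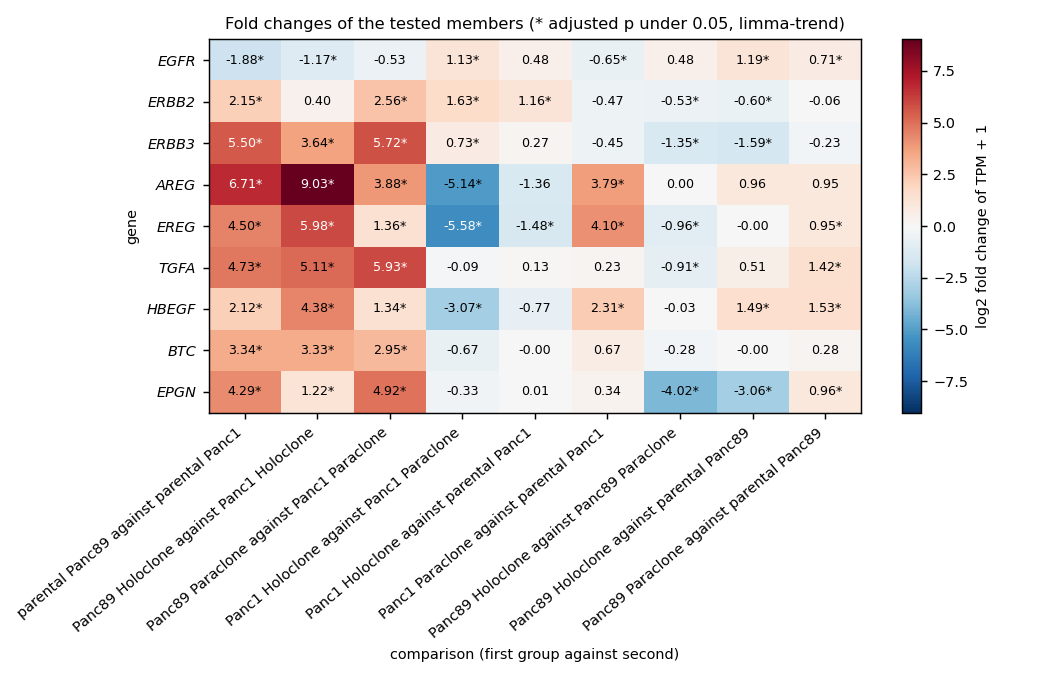
Log2 fold changes of TPM + 1 (colour and number) of the 9 genes tested (rows) in 9 comparisons between groups (columns), with an asterisk where the adjusted p from limma-trend was under 0.05. *AREG* ranges from −5.14 between the Panc1 clones to 9.03 between the Holoclone cells of the lines, and *BTC* is called between the lines only.

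Other genes of the pathway were counted in 4 lists that name the remaining ligands, the shedding of ligands, the adaptors and signal relays, and the inhibitors and turnover of the receptors. The share of all genes tested that were called was 37.3% between the Panc1 clones, 35.7% between the Panc89 clones and 66.0% between the parental cells, as given above. Of the 5 remaining ligands, 4 could be tested. *EGF*, the founding ligand of EGFR, was listed at 0 in all parental Panc1 and Panc1 Holoclone libraries, at or below 0.119 TPM in Panc1 Paraclone cells and between 0.242 and 1.29 TPM in Panc89. *NRG1*, a neuregulin that binds ERBB3 and ERBB4, was at 11.4, 11.2 and 13.2 TPM in parental Panc89, 36.8, 50.8 and 42.4 TPM in Panc89 Holoclone and 1.99, 3.06 and 1.21 TPM in Panc89 Paraclone cells. The 3 groups were separate, and *NRG1* rose by 3.88 on the log2 scale (SE 0.30, adjusted p = 1.19e-07) in Holoclone against Paraclone cells, 20.8-fold, in the direction opposite to that of *ERBB3*. It was the only gene of this list called in that comparison. Between the Panc1 clones 1 of the 4 was called, higher in Holoclone cells (0 with either scaling), against 37.3% of all genes tested. *NRG1* there was at 15.9, 36.6 and 23.9 TPM in Holoclone and 17.7, 12.4 and 10.4 TPM in Paraclone cells, with overlap. Between the parental cells 3 of the 4 were called, 2 higher in Panc89, a share near the 66.0% of all genes tested, and *NRG2* fell by 3.02 on the log2 scale (SE 0.19, adjusted p = 1.2e-09).

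Of the 9 shedding genes, 8 were tested. In Holoclone against Paraclone cells, 0 rose and 3 fell in Panc1 (5 fell with either scaling), where 37.3% of all genes tested were called, and 2 rose and 3 fell in Panc89 (1 and 4 with either scaling), where 35.7% were called. *ADAM19*, a membrane metalloprotease, was at 1.27, 1.30 and 1.46 TPM in Panc1 Holoclone and 48.4, 31.3 and 25.1 TPM in Panc1 Paraclone cells, and at 2.64, 1.12 and 1.13 TPM in Panc89 Holoclone and 66.5, 29.5 and 48.9 TPM in Panc89 Paraclone cells. Its log2 fold change was −3.89 (SE 0.31, adjusted p = 1.35e-07) in Panc1 and −4.20 (SE 0.31, adjusted p = 6.08e-08) in Panc89, without overlap in either line. In Panc1, *RHBDL2*, a rhomboid protease of the membrane, was at −1.48 (SE 0.27, adjusted p = 0.000439), and *FRMD8*, a partner of the iRhoms that carry ADAM17, at −0.58 (adjusted p = 0.0267), a call lost when Holoclone replicate 2 (−0.51) or 3 (−0.58) or Paraclone replicate 1 (−0.56), 2 (−0.60) or 3 (−0.57) was left out. In Panc89, the iRhom gene *RHBDF2* was at −0.62 (SE 0.17, adjusted p = 0.00856; 0.0591 with only the libraries compared in the fit) and the sheddase gene *ADAM10* at 0.49 (SE 0.09, adjusted p = 0.000713). *ADAM17* itself was at −0.14 (adjusted p = 0.535) in Panc1 and 0.37 (adjusted p = 0.0825) in Panc89. Between the parental cells, 4 of the 8 fell in Panc89 (3 with upper quartile and 2 with median-of-ratios scaling), where 38.5% of all genes tested fell, led by *RHBDL2* with −2.94 (SE 0.27, adjusted p = 9.12e-08).

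All 18 adaptors and relays were tested. In Panc1 Holoclone against Paraclone cells 11 rose and 2 fell, where 27.4% of all genes tested rose and 9.97% fell, and with either scaling 9 rose and 3 fell. *SHC1*, an adaptor that binds phosphorylated ERBB receptors, fell with −1.12 (SE 0.18, adjusted p = 0.000217), and *GAB2* and *SOS2*, a docking protein and an exchange factor for RAS, rose by 1.77 (SE 0.40, adjusted p = 0.0024) and 1.09 (SE 0.14, adjusted p = 2.74e-05). In Panc89, 2 rose and 2 fell (2 and 3 with either scaling), where 35.7% of all genes tested were called. *HRAS* rose there by 1.44 (SE 0.19, adjusted p = 2.87e-05) and *PIK3R1*, a regulatory subunit of PI3K, by 0.91 (SE 0.20, adjusted p = 0.00186). Between the parental cells 4 were higher and 10 lower in Panc89, where 27.5% of all genes tested were higher and 38.5% lower, and with either scaling 6 and 7. *GRB7*, an adaptor gene next to *ERBB2* in the known amplicon of chromosome 17, was at 2.30, 1.82 and 1.27 TPM in parental Panc1 and 141, 122 and 136 TPM in parental Panc89 cells, 5.59 higher on the log2 scale (SE 0.34, adjusted p = 8.79e-10). *PLCG1* and *PIK3CB* fell, with −2.80 (SE 0.28, adjusted p = 3.54e-07) and −1.97 (SE 0.20, adjusted p = 3e-07).

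All 15 inhibitors and turnover genes were tested. In Panc1 Holoclone against Paraclone cells 6 rose and 5 fell, where 27.4% of all genes tested rose and 9.97% fell, whereas with either scaling 1 rose and 5 fell. *ERRFI1*, a feedback inhibitor of EGFR that EGFR signalling induces, was at 558, 750 and 463 TPM in Panc1 Holoclone and 1134, 1493 and 1521 TPM in Panc1 Paraclone cells. Its log2 fold change between these clones was −1.24 (SE 0.32, adjusted p = 0.00619). In Panc89, *ERRFI1* was at 324, 632 and 638 TPM in Holoclone and 469, 238 and 357 TPM in Paraclone cells, with overlap. Parental cells also overlapped, at 917, 492 and 1113 TPM in Panc1 and 619, 570 and 646 TPM in Panc89. Between the Panc1 clones, *SH3KBP1*, a partner of CBL in receptor endocytosis, and *LRIG3* were at −1.43 (SE 0.20, adjusted p = 5.31e-05) and −1.11 (SE 0.25, adjusted p = 0.00277). In Panc89, 4 rose in Holoclone cells and 0 fell, against 3 and 0 with either scaling. There 35.7% of all genes tested were called, and 3606 of the 16093 rose, a share near that of this list. *LRIG1*, which lowers the level of ERBB receptors, was at 19.4, 24.0 and 19.4 TPM in Panc89 Holoclone and 6.18, 7.08 and 6.97 TPM in Panc89 Paraclone cells and rose by 1.50 (SE 0.17, adjusted p = 4.9e-06). *STUB1* rose by 0.51 (SE 0.12, adjusted p = 0.00268) and *EPS15* by 0.58 (SE 0.16, adjusted p = 0.0118), the latter not passing without Holoclone replicate 3 (0.41, adjusted p = 0.0673) or with either scaling (0.46 and 0.45), nor with only the libraries compared in the fit (adjusted p = 0.108). Between the parental cells, 5 were higher and 6 lower in Panc89 (5 and 4 with either scaling), a share near the 66.0% of all genes tested that were called, led by the ubiquitin ligase genes *CBLC* with 4.95 (SE 0.17, adjusted p = 1.12e-12) and *CBL* with −2.60 (SE 0.15, adjusted p = 3.15e-10).

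**Figure D5:**
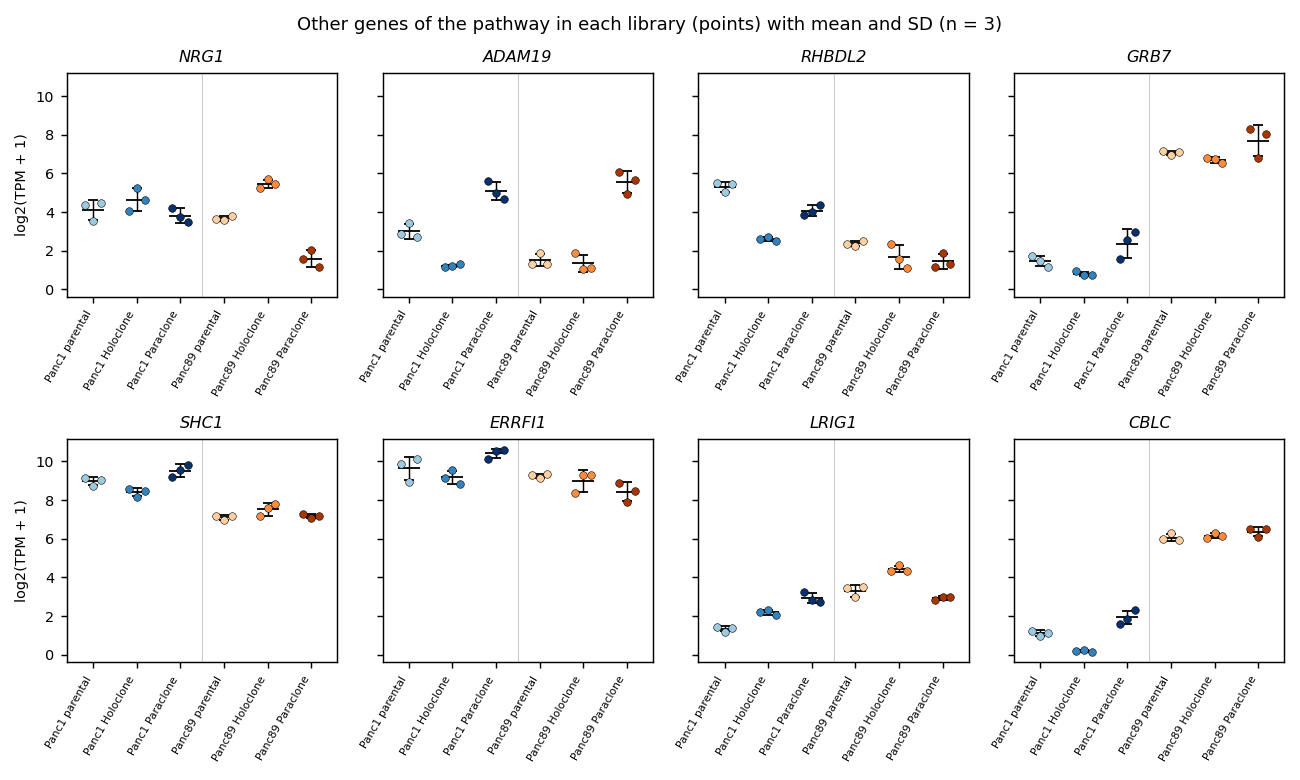
Level of 8 other genes of the pathway on the log2(TPM + 1) scale (y axis) in each library (points) of the 6 groups (x axis), with the mean and SD of 3 replicates. *NRG1* is lowest in Panc89 Paraclone cells, *ADAM19* is high in the Paraclone cells of both lines, and *GRB7* and *CBLC* are high in all Panc89 libraries.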

How the data were processed

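RNA of the 18 libraries had been isolated from 3 passages per cell variant, made into stranded mRNA libraries and read paired-end by the authors, who quantified transcripts with kallisto 0.46.1 on GRCh38, imported them with tximport as scaled TPM and deposited the values as log2(TPM + 1), 1 value per symbol and library. Since these are not counts, edgeR and DESeq2 were not run, and the authors' own tests are not used here.

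Libraries were grouped by their labels. Genes reaching 1 TPM in 3 or more libraries were kept (16093), and limma-trend (limma 3.58.1, R 4.3.3) fitted 1 mean of log2(TPM + 1) per group over all 18 libraries, without pairing. Two-sided p-values were adjusted by Benjamini-Hochberg over all genes tested, with a threshold of 0.05. Of the table, 10923 symbols were at 0 everywhere. Same-numbered libraries of a line deviated together with correlations from −0.318 to 0.190 over 18 pairs. The code was tested on simulated data. The 10 genes and the pathway and marker lists were chosen with earlier results of these data known. Pathway genes are named where called, at 5 TPM or more in the higher group and without overlap, at most 3 per list and comparison; *EGF* and *ADAM17* are named outside this rule, chosen after their values were seen. For each gene, the 2 genes most alike over the libraries are named too, except 1 for *EPGN* that is not reported here.

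Alternatives were a pseudocount of 0.1, no filter, fitting only the libraries of the comparison, blocking on the replicate number, 2 rescalings of the TPM and leaving out each library.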

Additional observations from a re-analysis of the deposited data

Results flagged for a closer look

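For 6 of the 9 genes tested, the change from Paraclone to Holoclone cells differed between Panc89 and Panc1, by the test of the difference of the log2 fold changes in limma-trend. In the ligands *AREG* (difference 5.15), *EREG* (4.62) and *HBEGF* (3.04), a fall in Panc1 Holoclone cells stood against smaller values in Panc89. In the ligand *EPGN* (−3.70), Panc1 libraries held at most 0.360 TPM, where the 1 TPM added before the logarithm leaves little of a change. By mean TPM it was 23.5-fold lower in Holoclone than in Paraclone cells in Panc89 and 14.2-fold lower in Panc1. With 0.1 TPM added, the difference in limma-trend was −3.19 (adjusted p = 0.0014). The mean of *EPGN* in Panc1 Holoclone cells, 0.0197 TPM, was below 0.1 TPM too, so neither added amount gives the size of the change in Panc1. In the receptors *ERBB2* (−2.16) and *ERBB3* (−2.08), positive values in Panc1 stood against negative ones in Panc89, but the call of *ERBB2* in Panc89 and that of *ERBB3* in Panc1 were lost under several alternatives. Whichever library was left out, the 6 differences had adjusted p-values from 8.15e-08 to 0.00900 and kept their signs. Since each line holds 1 Holoclone and 1 Paraclone, differences between the lines cannot be told apart from differences between the clones picked.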

How the results depend on the processing

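The calls between the parental lines, those of *AREG*, *EREG*, *HBEGF*, *EGFR* and *ERBB2* between the Panc1 clones, those of *EPGN* and *ERBB3* between the Panc89 clones, and the 6 differences between the lines held under every alternative run. For the difference of *EPGN* this says little, since both amounts added to the TPM, 1 and 0.1, were above its mean in Panc1 Holoclone cells (0.0197 TPM). Over all alternatives, the 9 genes kept direction and side of the threshold in 993 values, lost the call in 92, gained it in 21 and changed sign in 28. Of the 9 genes, 5 were called between the Panc89 clones, and 3 with a pseudocount of 0.1, 2 with the groups compared alone, 3 with the replicate block and 2 to 4 with a library left out. For Panc89 Paraclone against parental cells, 5 became 2 with the pseudocount, 3 without the filter (*ERBB4* counted), 3 with the groups alone, 1 with the replicate block and 1 to 4 with a library left out. For Panc89 Holoclone against parental cells, 5 became 3 with the groups alone, 3 with the block and 3 to 6 with a library left out, and in Panc1 2 became 1 with the groups alone, *EREG* losing its call. The block ended the calls of *ERBB2* and *TGFA* between the Panc89 clones, of *ERBB2* and *HBEGF* in Panc89 Holoclone, of *EGFR*, *EREG*, *HBEGF* and *EPGN* in Panc89 Paraclone and of *EGFR* in Panc1 Paraclone against parental cells, and changed no other call of the 9 genes. The study does not state whether same-numbered libraries of a line are paired, and the main fit treated them as unpaired. Their correlations, from −0.318 to 0.190, rest on deviations from means of 3 libraries and cannot decide this. The calls that the block ended therefore depend on that treatment. Of all genes, 5746 were called between the Panc89 clones and 3377 with the groups alone, and 1759 in Panc1 Holoclone against parental cells, with 1061 (without Holoclone replicate 3) to 1571 when a library was left out. The cause was not tested.

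Signs changed in values that were not called. *AREG* between the Panc89 clones was −0.12 with upper quartile and −0.14 with median-of-ratios scaling, and −0.38 to 0.60 with a library left out. With a pseudocount of 0.1, *TGFA* between the Panc1 clones was 0.059 and *BTC* in Panc1 Holoclone against parental cells 0.0035. With a library left out, the ranges were −0.43 to 0.10 for *TGFA* between the Panc1 clones, −0.64 to 0.25 for *BTC* and −0.50 to 0.55 for *HBEGF* between the Panc89 clones, −0.026 to 0.024 for *BTC* and −0.0023 to 0.019 for *EPGN* in Panc1 Holoclone, −0.13 to 0.25 for *BTC* and −0.20 to 0.15 for *EREG* in Panc89 Holoclone, and −0.25 to 0.64 for *BTC* in Panc89 Paraclone against parental cells. Without counts, depth limits the values near 0 TPM by an unknown amount.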

Other observations

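The genes most like each member were sought by Pearson's r of the log2(TPM + 1) values over all 18 libraries, after the mean of its own line was taken from each library, which leaves the differences among the 3 variants of a line and among replicates. The values describe libraries that share 2 lines and 6 groups, and they carry no test. *AREG* was most like its neighbour *EREG* (r = 0.959) and *MAP4K3-DT* (0.947). This r spans both lines, and the neighbours were not alike in each. Between the Panc1 clones *AREG* and *EREG* had log2 fold changes of −5.14 and −5.58, and between the Panc89 clones of 0.00 and −0.96. *EREG* was most like *TOX* (0.971) and *B3GALT1* (0.965), and *HBEGF* was most like *IER3* (0.952), an immediate early response gene, and *AREG* (0.937). *EPGN*, which lies 48.4 kb from *EREG*, was most like *KRT6B* (0.975), a keratin whose near-identical paralogs make its value uncertain. *TGFA* was most like the cytokine gene *IL1B* (0.911) and *ATP2C2-AS1* (0.897), and *BTC* like *TENT5A* (0.865) and the drug transporter gene *ABCG2* (0.843). Among the receptors, *EGFR* was most like *ESYT1* (0.952) and *PICALM* (0.935), which acts in clathrin-mediated endocytosis, *ERBB2* like *FOXN3* (0.939) and *PPM1H* (0.934), and *ERBB3* like *MXD4* (0.938) and *SHARPIN* (0.922).

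*ERBB4*, which did not pass the filter on low values, was fitted only without that filter. There it had log2 fold changes of −0.27 (SE 0.06, adjusted p = 0.00381) in Panc89 Holoclone against Panc89 Paraclone cells, 0.28 (SE 0.06, adjusted p = 0.0059) in Panc89 Paraclone against parental Panc89 cells and 0.35 (SE 0.06, adjusted p = 0.000212) in Panc89 Paraclone against Panc1 Paraclone cells, and the change between the clones in Panc89 minus that in Panc1 was −0.38 (SE 0.08, adjusted p = 0.00456), all at levels at or below 0.369 TPM.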
